A study of Mus musculus with 14 samples.

Results

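Histone variants were followed here in single mouse embryos made by somatic cell nuclear transfer (SCNT). The members are 9 listed genes: the oocyte linker histone gene H1f8 (H1foo), the linker histone gene H1f0, the H2A variant genes H2az1 (H2afz), H2az2 (H2afv), H2ax (H2afx) and Macroh2a1 (H2afy), and the H3 variant genes H3f3a, H3f3b and Cenpa. They were chosen by name, not by their values, and are 9 of 20636 genes and unnamed entries for which values were given. All 9 were matched in the data, and 8 passed the filter on low values, 1 RPKM or more in at least 3 of the 14 embryos, which left 7600 genes for the tests. RPKM scales reads to the length of the transcript and to all reads counted in the embryo, so levels of different genes are compared per length.

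Canonical histones are made mainly in S phase from clustered genes, whereas variant histones come from genes that most cells transcribe outside S phase, and they can therefore be placed in chromatin without DNA replication. H1f8 encodes the linker histone of oocytes and early cleavage embryos, which takes the place of somatic linker histones on a transplanted nucleus and is later lost. H3.3, encoded by both H3f3a and H3f3b, is known for its deposition from the egg store into incoming chromatin, and H2A.Z, H2AX, macroH2A and CENP-A mark promoters, DNA damage, silenced chromatin and centromeres.

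The embryos were of strain B6D2F1 and were collected as two-cell embryos, by the labels 28 h after nuclear transfer, and each gave 1 library of total RNA. All were activated with SrCl2 in medium holding cytochalasin B and cultured with deionized bovine serum albumin. Trichostatin A (TSA), an inhibitor of histone deacetylases, was used at 50 nM, and vitamin C (VC), a cofactor that keeps iron-dependent dioxygenases active, at 10 µg/ml, with hours counted from the start of activation. The 6 groups were untreated control (3 embryos), VC(0-8h) (1 embryo), VC(8-15h) (2), TSA(0-8h) (3), TSA(0-8h)+VC(0-8h) (2) and TSA(0-8h)+VC(8-15h) (3), and the last is called the combined treatment where it is set against another group. The study describes 3 independent rounds of nuclear transfer, with cumulus cells as the usual donors, and no fertilized embryos are among these groups.

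Reads counted ranged from 3021540 to 13589389 an embryo, and 3130 to 6231 genes reached 1 RPKM. The libraries were amplified from 2 of 9 µl of RNA by 14 and 12 PCR cycles and ran in 3 sequencing lanes of 5, 6 and 3 embryos, in which each of the 3 groups of 3 had 1 embryo per lane. Values of the same gene differed widely between embryos: of 4249 genes that reached 100 RPKM somewhere, 81.1% were under 1 RPKM in at least 1 other embryo. The 8 oocyte markers summed to 281 to 1117 RPKM in every embryo and the 8 two-cell markers to 6.06 to 492 RPKM. The 10 cumulus cell markers summed to 0 to 1.84 RPKM (0 to 0.216 in control, 0 to 0.116 in TSA(0-8h) and 0 to 0.237 in TSA(0-8h)+VC(8-15h) embryos), and Fshr, Lhcgr and Inhba were at 0 in all 14.

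The paralogs that make the same or nearly the same protein differ in their coding DNA, and their first 120 coding bases are shown because the comparison of the gene pairs turns on whether reads of one gene can be told from reads of the other. Capitals mark the bases that differ between the 2 genes of a pair.
H3f3a: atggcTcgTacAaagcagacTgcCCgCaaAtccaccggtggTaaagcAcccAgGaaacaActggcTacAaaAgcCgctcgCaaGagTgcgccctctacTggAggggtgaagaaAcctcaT
H3f3b: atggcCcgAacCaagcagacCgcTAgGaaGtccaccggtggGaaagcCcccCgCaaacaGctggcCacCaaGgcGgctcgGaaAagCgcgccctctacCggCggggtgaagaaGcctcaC
H2az1: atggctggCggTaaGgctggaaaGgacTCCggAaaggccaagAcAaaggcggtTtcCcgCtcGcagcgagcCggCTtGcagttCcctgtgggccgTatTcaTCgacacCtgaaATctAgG
H2az2: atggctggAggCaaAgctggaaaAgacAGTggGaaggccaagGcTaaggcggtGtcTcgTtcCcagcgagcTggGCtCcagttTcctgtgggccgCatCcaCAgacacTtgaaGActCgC

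Within the stretch shown, H3f3a and H3f3b differed at 24 bases and H2az1 and H2az2 at 28. Over the whole coding sequence H3f3a and H3f3b were identical at 76.9% of 411 bases, and 81 of the 95 differing bases were at the third codon position. H2az1 and H2az2 were identical at 79.1% of 387 bases, with 70 of 81 differences at that position. The longest identical runs were 23 and 14 bases, against reads of 50 bases, and neither pair shared any window of 50 coding bases.

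Copies elsewhere in the genome were a separate matter. Of all 50-base windows of the annotated transcript, 74.6% for H2az1, 62.1% for H3f3a, 30.5% for H3f3b and 6.27% for H2ax had an exact match at more than 1 place in the mm9 chromosomes, with up to 5, 17, 3 and 19 places. The annotated transcripts of H3f3a and H2az1 have 724 and 1069 bases, whereas the values rest on entries of 1076 and 957 bases, so for H3f3a part of the counted sequence was not searched. No window of H1f8, H2az2, Macroh2a1 or Cenpa had an exact match at more than 1 place. How reads with several places were counted is not given in the sources used here, so the levels of H2az1 and H3f3a, and to a lesser degree H3f3b, are uncertain.

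**Figure D1:**
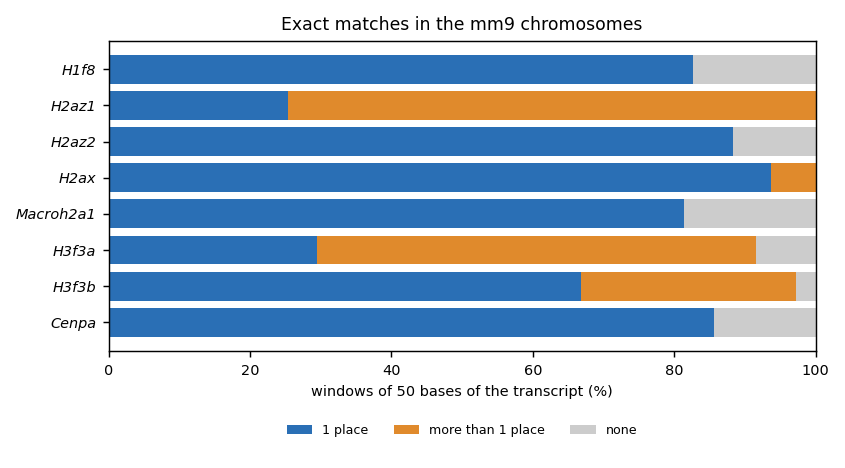
Share of the 50-base windows of 8 member transcripts (percent, horizontal axis) that match the mm9 chromosomes exactly at 1 place, at more than 1 place or at none. H2az1 and H3f3a have most of their windows at more than 1 place, 74.6% and 62.1%, and H1f0 was not searched.

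H2ax also holds the hairpin that ends histone mRNAs made in S phase, which is shown because it sets H2ax apart from the other variants searched. Its 16-base consensus, a stem of 6 paired bases around a loop of 4, was looked for on the sense strand of 8 member transcripts and was found in H2ax alone, in the 3′ untranslated part, 816 bases before the annotated end of the 1357-base transcript. The hairpin is in capitals, and the 7 bases on each side are in lower case.
H2ax: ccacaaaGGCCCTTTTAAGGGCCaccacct

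Of 22611 genes with annotated coding transcripts, 44 (0.195%) held this motif. H2ax is known to give both a short mRNA that ends at the hairpin and a longer polyadenylated one, which values per gene cannot separate.

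In the mm9 annotation (NCBIM37), H1f8 lies at chr6:115894956-115900254 on the plus strand with 5 exons, H2ax at chr9:44142798-44144154 on the plus strand with 1 exon, H2az1 at chr3:137527451-137529886 on the plus strand with 5 exons and H2az2 at chr11:6327229-6344446 on the minus strand with 5 exons. H3f3a is at chr1:182730963-182744074 on the minus strand with 5 exons, H3f3b at chr11:115883226-115889276 on the minus strand with 4 exons, Cenpa at chr5:30969150-30977200 on the plus strand with 5 exons and Macroh2a1 at chr13:56174980-56237722 on the minus strand with 9 exons. H1f0 is at chr15:78859152-78859689 on the plus strand, where that annotation holds only a model of a pseudogene. Values count exonic reads of the whole transcript, untranslated parts included.

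Ordered by the median over all 14 embryos, the levels were 235 RPKM for H3f3b, 184 for Cenpa, 166 for H2az1, 106 for H2ax, 83.2 for H1f0, 59.1 for H3f3a and 0.821 for H2az2, with H1f8 and Macroh2a1 at a median of 0. Neighbours in that order among the first 6 overlapped widely in range, and no gene was the highest member throughout: Cenpa was in 4 embryos, H2az1 in 4, H3f3b in 2, H2ax in 2, and H1f0 and H2az2 in 1 each. Of the 7 members that reached 100 RPKM, 6 were under 10 RPKM in some other embryo, and of all genes that reached 100 RPKM 92.6% were.

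**Figure D2:**
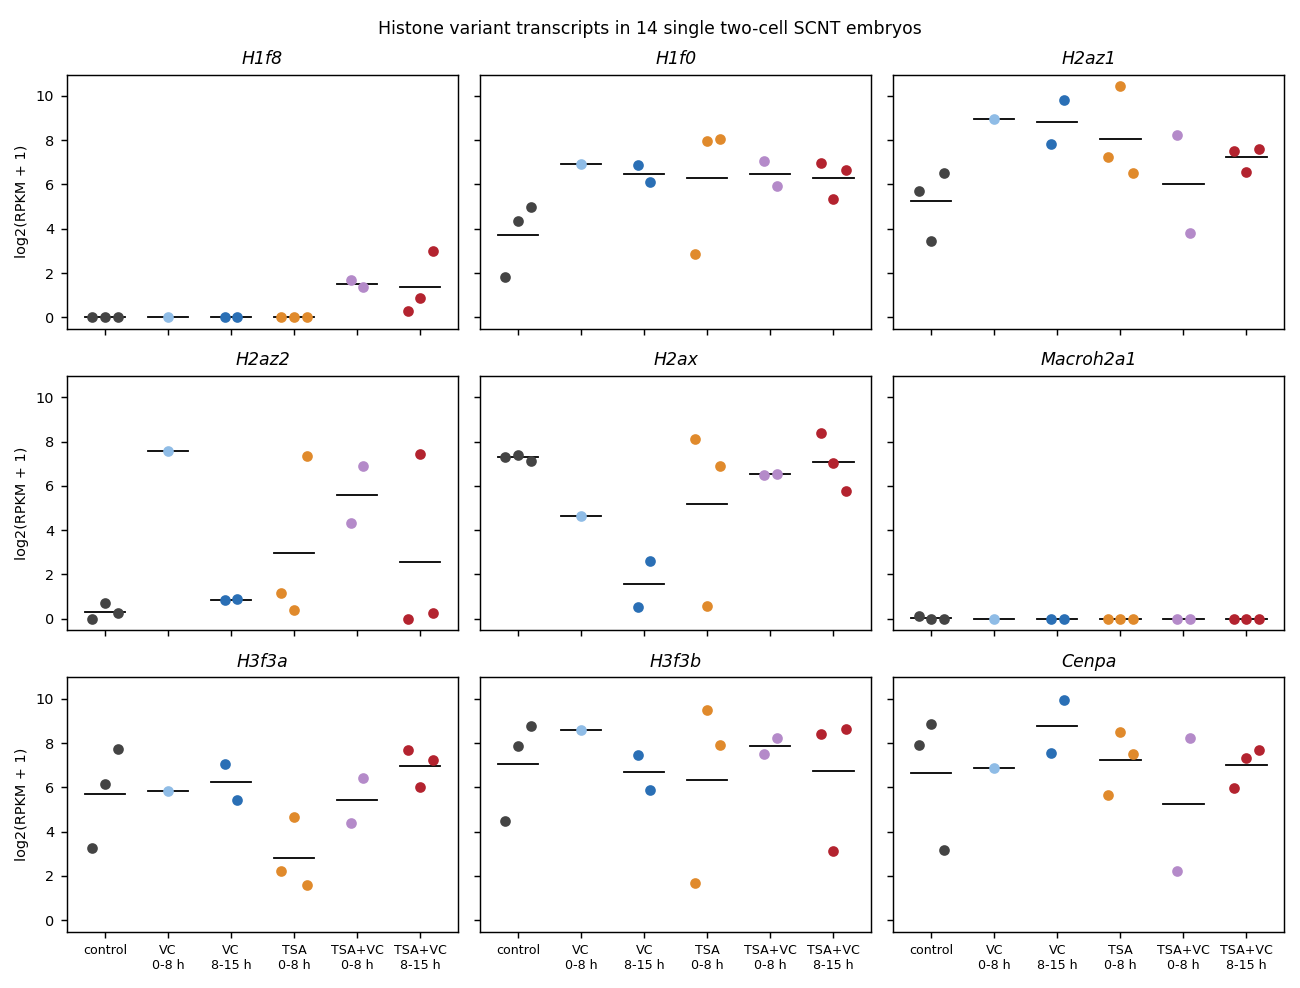
Level of each of the 9 genes, as log2(RPKM + 1), in every embryo (points) by treatment, with the group mean as a line. H1f8 is above 0 only in the 5 embryos given both agents, Macroh2a1 is near 0 throughout, and H2az2 lies either high or near 0.

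H1f8 reads were found in each of the 5 embryos given both TSA and VC and in none of the other 9. In TSA(0-8h)+VC(0-8h) embryos H1f8 was at 2.20 and 1.58 RPKM, and in TSA(0-8h)+VC(8-15h) embryos at 0.207, 0.808 and 7.09 RPKM. It was at 0 in all 3 control, 3 VC and 3 TSA(0-8h) embryos. Even the highest value was far under the medians of H1f0 and of the H3.3 genes.

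The reads behind these levels were few. The 5 values rest on 8, 23, 1, 7 and 97 reads in the order above, 136 in all, with exact 95% Poisson intervals of 3.45 to 15.8, 14.6 to 34.5, 0.0253 to 5.57, 2.81 to 14.4 and 78.7 to 118 reads, which cover counting error only. For the other 9 embryos, with a count of 0, the level of 3 reads was taken as the limit, which is 0.198 to 0.891 RPKM depending on depth. The exact 95% Poisson interval of 0 reads reaches further, to 3.69 reads. Of the 5 embryos with reads, 3 had a value above each of those limits of 3 reads and 2, TSA(0-8h)+VC(8-15h) replicates 1 and 2, did not.

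Among the 7600 genes tested, 1 (0.0132%), H1f8 itself, was above 0 in all 5 embryos given both agents and at 0 in the other 9, and no other gene of all 20636 was. Each of the 5 embryos was above each of the other 9 for 16 genes (0.211%). This grouping was made after the values were seen, and both counts are descriptions with no test. H1f8 passed the filter with exactly 3 embryos at 1 RPKM or more, all of them given both agents.

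Because H1f8 entered the tests only through embryos given both agents, its fold changes are given as descriptions, with no p. On the log2(RPKM + 1) scale they were 1.38 (standard error 0.76) in TSA(0-8h)+VC(8-15h) against control embryos and 1.38 (standard error 0.74) against TSA(0-8h) embryos. Both are set against groups at 0, so they depend on the added 1. Without replicate 3 of the combined treatment, the embryo with 97 reads, each was 0.56. In the additive fits over 14 embryos H1f8 was at 0.80 (standard error 0.65) for any TSA and at 0.80 for any VC. TSA and VC pooled in this way rest on the same 5 embryos.

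**Figure D3:**
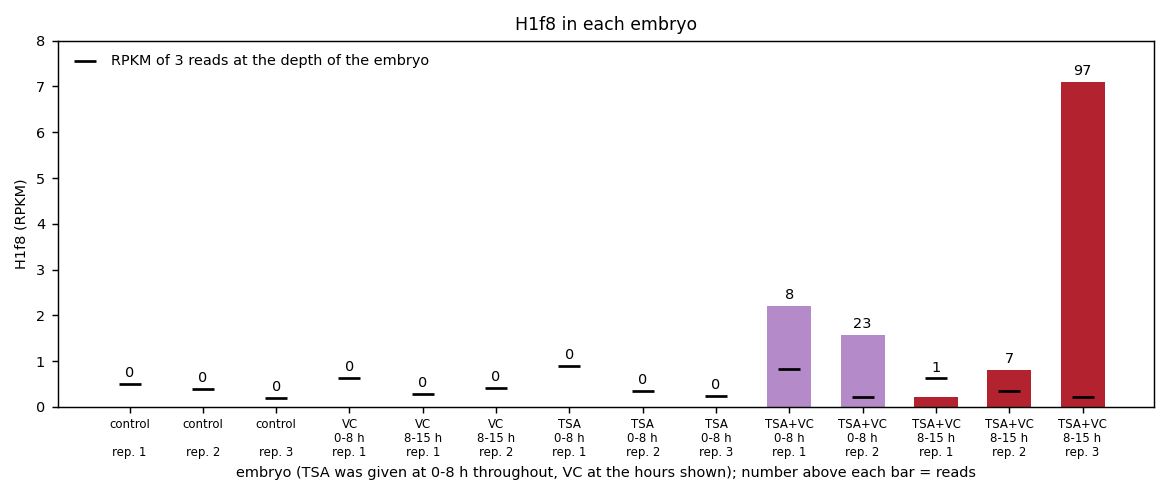
H1f8 in RPKM (bars) in each of the 14 embryos, with the recovered number of reads above each bar and a dash at the level of 3 reads at the depth of that embryo. Reads occur in the 5 embryos on the right, between 1 and 97, and TSA(0-8h)+VC(8-15h) replicate 1 with 1 read lies under its dash.

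The genes whose levels ran most like H1f8 over the 14 embryos were Scyl3 (Spearman correlation 0.873), Sar1a (0.867), Cux2 (0.848), Txnip (0.838) and Per3 (0.838), out of 7599. With 9 embryos tied at 0 and shared lanes, these values describe the ranking only. Of the other members, H3f3a stood nearest to H1f8 at place 1629 of that order (0.310) and Cenpa farthest at place 6559 (-0.207).

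H1f0, a linker histone best known from cells that have left the cycle, was found in all 14 embryos. It was at 2.5, 19.2 and 30.2 RPKM in control embryos, 119 in the VC(0-8h) embryo, and 117 and 67.5 in VC(8-15h) embryos. It was at 6.22, 251 and 264 RPKM in TSA(0-8h) embryos, 131 and 60.3 under TSA(0-8h)+VC(0-8h), and 123, 39.4 and 98.8 in TSA(0-8h)+VC(8-15h) embryos. The control embryos were low: 10 of the 11 treated embryos exceeded each of them. The exception was TSA(0-8h) replicate 1, which had the fewest reads of all. Of the genes tested, 1.38% had at least 10 such embryos. The pooling of all treated embryos and the cutoff of 10 were taken after the values were seen, so both counts are descriptions with no test.

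The log2 fold change of H1f0 was 2.61 (standard error 1.3) in TSA(0-8h)+VC(8-15h) and 2.59 (standard error 1.76) in TSA(0-8h) embryos against the same control embryos, with limma adjusted p-values of 0.721 and 0.794. Neither passed the threshold of 0.05. Within the 3 lanes the TSA(0-8h)+VC(8-15h) embryo was above the control embryo by 5.14, 1.00 and 1.68 (log2). H1f8 was below H1f0 in each of the 14 embryos, and the mean difference of H1f8 minus H1f0 was -5.33 ± 1.87 (log2, SD, n = 14). With H1f8 at 0 in 9 embryos and H1f0 above 0 in each, those 9 differences could only be negative, and with 0.1 added in place of 1 the mean was -7.70, so both are given as descriptions.

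The 5 somatic linker histone genes H1f1 to H1f5 gave little in most embryos, and none passed the filter on low values. They summed to between 0 and 1.87 RPKM outside the embryos given both agents, a split made after the values were seen. Embryos given both agents were partly as low, at 0 and 6.15 RPKM under TSA(0-8h)+VC(0-8h) and 0.157 to 68.4 under TSA(0-8h)+VC(8-15h). The highest value, 68.4 RPKM, was of H1f1 in TSA(0-8h)+VC(8-15h) replicate 1, and H1f5 was at 0 in all 14.

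H2az1, the main gene of H2A.Z, which is placed at promoters by the SRCAP and TIP60 complexes, was detected in all 14 embryos. It was at 51.4, 10.0 and 91.2 RPKM in control embryos, 503 in the VC(0-8h) embryo, and 227 and 907 in VC(8-15h) embryos. It was at 148, 1393 and 91.0 RPKM in TSA(0-8h) embryos, 297 and 13.1 under TSA(0-8h)+VC(0-8h), and 184, 93.8 and 196 in TSA(0-8h)+VC(8-15h) embryos. The 3 embryos given VC alone and the 3 given TSA(0-8h)+VC(8-15h) all lay above the 3 control embryos, in the latter by a small margin of 93.8 over 91.2 RPKM.

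The H2az1 log2 fold change was 2.01 (standard error 1.05) in TSA(0-8h)+VC(8-15h) and 2.83 (standard error 1.34) in TSA(0-8h) embryos against control, with limma adjusted p-values of 0.721 and 0.794. The difference between TSA(0-8h)+VC(8-15h) and TSA(0-8h) embryos was -0.82 (standard error 1.08), limma adjusted p = 0.800. None of the 3 passed.

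H2az2, which encodes the second H2A.Z protein, was high in some embryos and near 0 in the others. It was at 0, 0.623 and 0.180 RPKM in control embryos, 191 in the VC(0-8h) embryo, and 0.806 and 0.837 in VC(8-15h) embryos. It was at 1.21, 0.313 and 161 RPKM in TSA(0-8h) embryos, 18.7 and 118 under TSA(0-8h)+VC(0-8h), and 0, 171 and 0.199 in TSA(0-8h)+VC(8-15h) embryos. Thus 5 embryos, all treated but spread over 4 groups, had 18.7 RPKM or more, and 9 had 1.21 RPKM or less. Such a span was common here: of all genes that reached 100 RPKM somewhere, 81.1% were under 1 RPKM in at least 1 other embryo.

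Reads behind the high H2az2 values numbered 100 to 3087 and those behind the low ones 0 to 13. In the 2 embryos without a read, control replicate 1 and TSA(0-8h)+VC(8-15h) replicate 1, the limit of 3 reads was at 0.338 and 0.422 RPKM. The within-group SD of H2az2 was 2.92 (log2) against a median of 2.11 over the genes tested, and the fold changes against control, 2.25 (standard error 1.94) in TSA(0-8h)+VC(8-15h) and 2.65 (standard error 2.25) in TSA(0-8h) embryos, had limma adjusted p-values of 0.740 and 0.794. Without TSA(0-8h) replicate 3, the embryo at 161 RPKM, the second was 0.46, and without replicate 2 of the combined treatment, at 171 RPKM, the first was -0.18.

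H2ax, whose product is phosphorylated around DNA breaks, was even among control embryos, at 159, 168 and 140 RPKM. It was at 23.8 RPKM in the VC(0-8h) embryo and at 0.448 and 5.15 in VC(8-15h) embryos. It was at 279, 0.471 and 120 RPKM in TSA(0-8h) embryos, 90.4 and 91.8 under TSA(0-8h)+VC(0-8h), and 336, 131 and 54.2 in TSA(0-8h)+VC(8-15h) embryos. The 3 embryos given VC alone were each below each control embryo, as were 9 of the 11 treated embryos in all. Of the genes tested, 2.51% matched or exceeded the latter count. Both poolings and the cutoff of 9 were taken after the values were seen, so these counts are descriptions with no test.

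The low H2ax values of VC(8-15h) embryos rest on 6 and 46 reads, and that of TSA(0-8h) replicate 2 on 5 reads. The TSA effect with VC(8-15h) minus that without VC was 7.58 (log2, standard error 2.45) for H2ax and -4.42 (standard error 1.74) for H2az1, in a fit of 11 embryos with 2 in the VC(8-15h) group, and neither passed (limma adjusted p = 0.875 for both). Against control, H2ax differed by -0.21 (standard error 0.87) in TSA(0-8h)+VC(8-15h) and by -2.09 (standard error 1.75) in TSA(0-8h) embryos, with limma adjusted p-values of 0.970 and 0.794.

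Macroh2a1, the variant with a large non-histone domain that is enriched on silenced chromatin, was practically without reads. It had 3 entries, and 1 of them was at 0.0946 RPKM in control replicate 1, whereas all else was at 0. It did not pass the filter and was not tested.

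H3f3a was at 8.57, 70.5 and 210 RPKM in control embryos, 55.4 in the VC(0-8h) embryo, and 131 and 42.6 in VC(8-15h) embryos. It was at 3.69, 24 and 1.98 RPKM in TSA(0-8h) embryos, 19.9 and 84.7 under TSA(0-8h)+VC(0-8h), and 208, 62.8 and 152 in TSA(0-8h)+VC(8-15h) embryos. TSA(0-8h) embryos held the 2 lowest values of all, and each of them was below each TSA(0-8h)+VC(8-15h) embryo.

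The H3f3a difference between TSA(0-8h)+VC(8-15h) and TSA(0-8h) embryos was 4.17 (log2, standard error 1.32), the largest of any member in the pairwise comparisons, and was 5.48, 1.35 and 5.68 within the 3 lanes. It did not pass over all genes (limma adjusted p = 0.697, range 0.147 to 0.865 over the alternatives). The exact permutation p was 0.1, the smallest that 3 against 3 embryos allow. Against control, H3f3a differed by 1.27 (standard error 1.19, limma adjusted p = 0.760) in TSA(0-8h)+VC(8-15h) and by -2.90 (standard error 1.80, limma adjusted p = 0.794) in TSA(0-8h) embryos. The first of these was 0.042 without control replicate 1 and 0.44 with median-ratio scaling. For any VC the additive fit gave 2.14 (standard error 1.04, limma adjusted p = 0.620). The plain difference of 8 embryos with VC against 6 without, with no term for TSA, was 1.99 (2-sided exact permutation p = 0.0626).

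H3f3b, the other H3.3 gene, was at 21.5, 233 and 441 RPKM in control embryos, 390 in the VC(0-8h) embryo, and 174 and 58.2 in VC(8-15h) embryos. It was at 2.16, 725 and 236 RPKM in TSA(0-8h) embryos, 183 and 294 under TSA(0-8h)+VC(0-8h), and 334, 7.81 and 396 in TSA(0-8h)+VC(8-15h) embryos. The spread within groups (SD 2.86, log2) exceeded every group difference: the fold changes were -0.33 (standard error 1.51), -0.70 (standard error 1.89) and 0.37 (standard error 2.14) in the 3 pairwise comparisons, first of the combined treatment over control, then of TSA(0-8h) over control, and last of the combined treatment over TSA(0-8h).

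Compared within embryos, H3f3b was above H3f3a in 12 of 14, and the mean difference of H3f3a minus H3f3b was -1.60 ± 2.24 (log2, SD, n = 14). The 2-sided exact sign-flip permutation test gave p = 0.0167, also after adjustment over 3 pairs. The third pair was H1f8 minus H1f0, whose difference could only be negative in 9 embryos. H3f3b made up 57.1% to 99.2% of the summed RPKM of both genes in those 12 embryos, and 36.9% and 11.1% in TSA(0-8h) replicate 1 and TSA(0-8h)+VC(8-15h) replicate 2. The test did not pass without lane 1 of the 3 (-1.94, exact p = 0.0586, n = 9) or without lane 3 (-1.24, exact p = 0.0723, n = 11).

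H2az1 was above H2az2 in 11 of 14 embryos, with a mean difference of 4.45 ± 4.01 (log2, SD, n = 14). The 2-sided exact sign-flip permutation p was 0.00244. Adjusted over 3 pairs it was 0.00366, a value that the H1f8 and H1f0 pair, with its fixed sign in most embryos, made smaller. Without lane 1 the difference was 3.56 (exact p = 0.0703, n = 9), and in the 6 embryos with 1 RPKM or more of both genes it was 1.10 (exact p = 0.469). H2az2 was the higher gene in TSA(0-8h) replicate 3, TSA(0-8h)+VC(0-8h) replicate 2 and TSA(0-8h)+VC(8-15h) replicate 2, where H2az1 made up 36.2%, 9.97% and 35.4% of the sum. The windows of H2az1 and H3f3a with copies elsewhere in the genome bear on both comparisons of pairs, and their part was not tested.

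**Figure D4:**
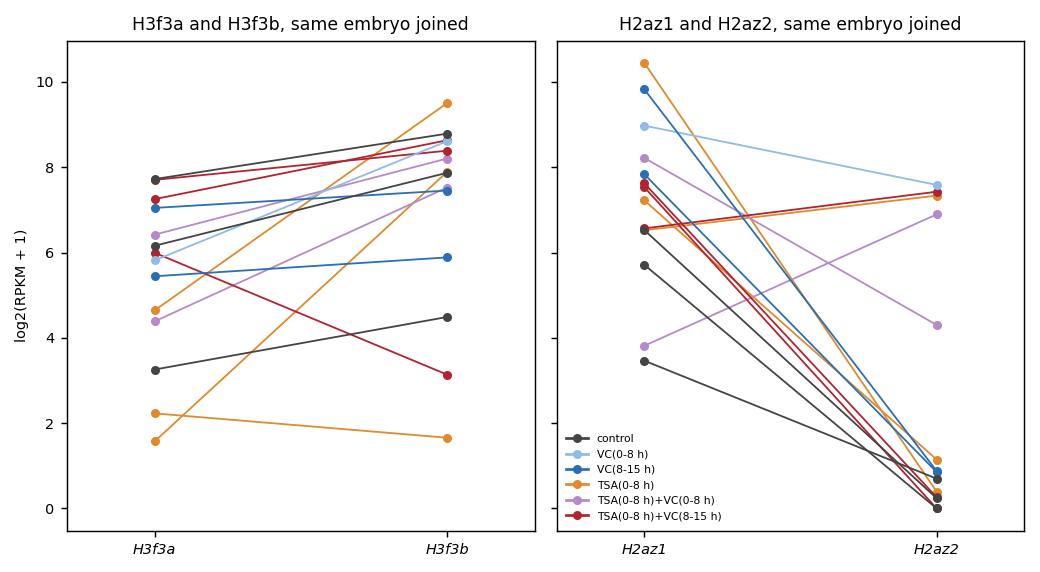
Levels of H3f3a and H3f3b (left) and of H2az1 and H2az2 (right) as log2(RPKM + 1), with the 2 genes of each embryo joined and coloured by treatment. H3f3b is the higher gene in 12 of 14 embryos and H2az1 in 11 of 14.

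Cenpa, which encodes the centromeric H3 variant CENP-A, was at 238, 463 and 8.09 RPKM in control embryos, 116 in the VC(0-8h) embryo, and 185 and 991 in VC(8-15h) embryos. It was at 50.0, 357 and 183 RPKM in TSA(0-8h) embryos, 3.67 and 303 under TSA(0-8h)+VC(0-8h), and 62.2, 161 and 205 in TSA(0-8h)+VC(8-15h) embryos. The groups overlapped in every comparison. The fold changes in the order used for H3f3b were 0.35 (standard error 1.33), 0.58 (standard error 1.49) and -0.23 (standard error 0.99).

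Over the members as a list, none passed the adjusted threshold of 0.05 in any comparison, where 0% of genes tested passed in the 3 pairwise comparisons and in the test of the difference between TSA effects, 0.0132% for any TSA and 0.0263% for any VC. limma-voom on the recovered reads called 0 members as well. Of all genes it called 27 in the combined treatment over control, 16 in TSA(0-8h) over control and 27 in the combined treatment over TSA(0-8h). The study, with a count test of its own, reported changed transcripts in each of these pairwise comparisons. The lack of calls in the main test therefore holds for that test on log values, and does not show that the groups are alike.

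Before adjustment, a p under 0.05 from limma was reached by 0 of the 7 members besides H1f8 for TSA(0-8h)+VC(8-15h) against control embryos. There 3.53% of genes were higher and 0.908% lower. It was reached by 0 of 7 for TSA(0-8h) against control embryos, where 1.18% of genes were higher and 1.41% lower. Of the combined treatment over TSA(0-8h) it was reached by 1 member, H3f3a, with 3.41% of genes higher and 0.605% lower. It was reached by 0 members for any TSA (2.28% and 2.63% of genes) and by 1 for any VC, H3f3a again (6.63% and 1.28%). For the difference between TSA effects it was reached by 2, H2az1 and H2ax, and by 3.71% of genes in either direction. The result for H3f3a depended on the processing. In the combined treatment over TSA(0-8h), 0 members reached it with median-ratio scaling or limma-voom, and 1 member did with quantile normalization. For any VC, 0 members reached it with any of those alternatives.

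In TSA(0-8h)+VC(8-15h) against control embryos, every treated embryo was above every control embryo for H1f0 and H2az1, 2 of the 7 members tested besides H1f8, against 8.39% of genes, and below for 0 of 7, against 3.22%. Against TSA(0-8h) embryos this held for 1 of 7, H3f3a (9.55% of genes), and the reverse for 0 of 7 (1.84%). H1f8 was also wholly higher in both, but is not counted, since it passed the filter only through its high embryos. TSA(0-8h) and control embryos overlapped for all 7, where 2.91% of genes were wholly higher and 5.62% wholly lower. For any TSA and any VC all 7 overlapped too, where 0.0132% and 0.211% of genes were wholly higher and 0.0526% and 0.0263% wholly lower.

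The 3 embryos given VC alone were pooled over both time windows after the values were seen. They lay above the 3 control embryos for H1f0, H2az1 and H2az2 (3 of the 7 members besides H1f8, against 6.24% of genes). They lay below them for H2ax (1 of 7, against 3% of genes). For H2az2 the VC(8-15h) embryos, with 13 and 9 reads, and the highest control embryo, with 7, were all under 1 RPKM. The median log2 fold change of the 8 members was 1.33 in TSA(0-8h)+VC(8-15h) against control, where that of all genes was 0.38, and 0.29 in TSA(0-8h) against control, where it was -0.25. The comparisons share their control embryos, and those 2 sets of values are not independent. Between TSA(0-8h)+VC(8-15h) and TSA(0-8h) embryos the medians were 0.19 and 0.71. Over the 7 members other than H1f8, which was at 0 in control and TSA(0-8h) embryos, the 3 medians were 1.27, 0.58 and 0.018.

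**Figure D5:**
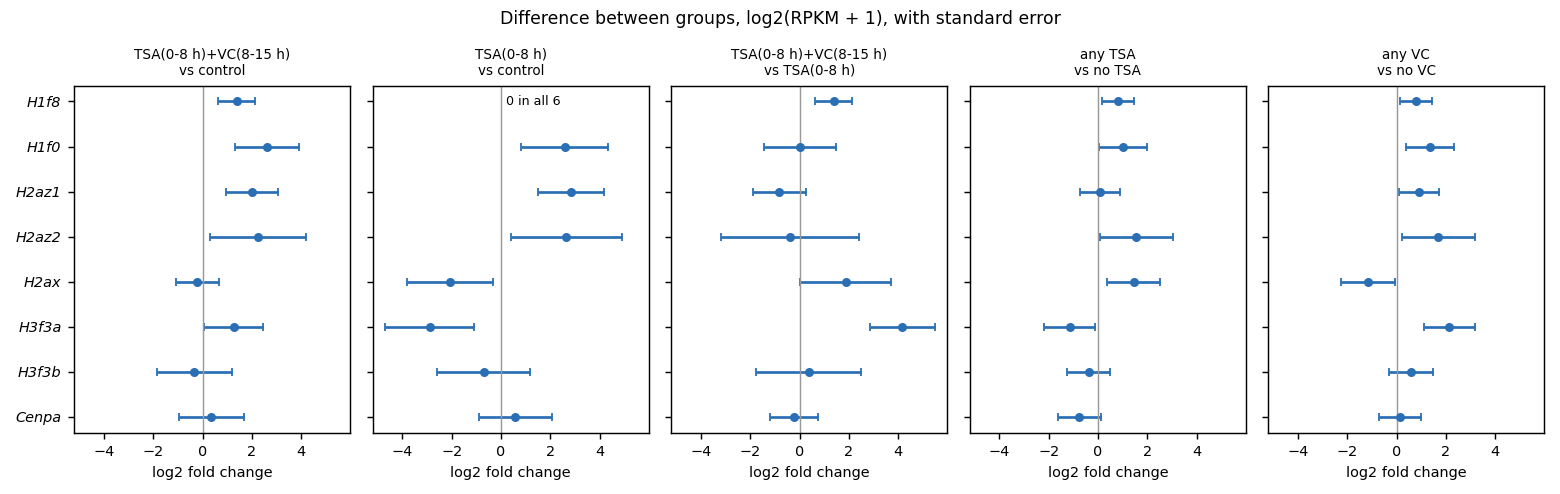
Log2 fold change on the log2(RPKM + 1) scale, with its standard error, of the 8 members tested in the 5 comparisons between groups of embryos. H3f3a in TSA(0-8h)+VC(8-15h) against TSA(0-8h) embryos has the largest value, 4.17, and none of the values passed the adjusted threshold.

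The genes that handle these variants were taken from lists of 8 H3.3 deposition, 11 H2A.Z exchange, 7 CENP-A deposition and 8 H2AX response genes, of which 8, 8, 7 and 8 were tested. None passed in either direction in any comparison. In that order of lists, log2 fold changes above and below 0 numbered 4 and 4, 4 and 4, 4 and 3, and 4 and 4 in the combined treatment over control. They numbered 1 and 7, 5 and 3, 2 and 5, and 2 and 6 in TSA(0-8h) over control. In the combined treatment over TSA(0-8h) they numbered 6 and 2, 3 and 5, 5 and 2, and 6 and 2. Before adjustment limma gave a p under 0.05 for 0 of 31 in the combined treatment over control. Of all genes, 3.53% were higher and 0.908% lower there. It gave 1 of 31 in TSA(0-8h) over control, Ruvbl1 (log2 difference 4.94), against 1.18% of genes higher and 1.41% lower. In the combined treatment over TSA(0-8h) it gave 3 of 31, against 3.41% higher and 0.605% lower. These were Hira and Rbbp7 (4.19), both higher, and Ruvbl1, lower (-4.59). For any TSA it gave 1 of 31 (2.28% and 2.63% of genes) and for any VC 3 of 31 (6.63% and 1.28%). For the difference between TSA effects it gave 1 of 31 (3.71% of genes in either direction). Without a call, the genes with the smallest p among those whose groups did not overlap are named by rule. Of all genes tested, 8.39% were wholly higher and 3.22% wholly lower in the combined treatment over control. These shares were 9.55% and 1.84% in the combined treatment over TSA(0-8h), and 2.91% and 5.62% in TSA(0-8h) over control. Hira, the H3.3 chaperone used outside replication, was at 27.4 to 88.6 RPKM in TSA(0-8h)+VC(8-15h) and 0 to 3.53 in TSA(0-8h) embryos, a log2 difference of 4.65 (standard error 1.73, limma adjusted p = 0.697). Control embryos held Hira at 0.0407, 91.8 and 0.0812 RPKM, and the VC(0-8h) embryo at 51.1. Atrx, which with Daxx places H3.3 in heterochromatin, was at 30.5 to 65.7 RPKM in TSA(0-8h)+VC(8-15h) and 66.8 to 189 in control embryos, a difference of -1.22 (standard error 0.94, limma adjusted p = 0.721).

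For CENP-A, Mis18a, a licensing factor of its deposition, was at 1.32 to 59.0 RPKM in TSA(0-8h)+VC(8-15h) and 0 to 0.284 in control embryos (3.10, standard error 1.86, limma adjusted p = 0.721). Hjurp, the CENP-A chaperone, was at 20.4 to 44.9 against 46.2 to 108 RPKM in the same groups (-1.38, standard error 1.06, limma adjusted p = 0.721). The 2 lay in opposite directions.

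Among genes of the H2AX response, Trp53bp1, which binds chromatin near breaks, was at 23.3 to 64.7 RPKM in TSA(0-8h)+VC(8-15h) embryos, against 0.0945 to 5.38 in control and 0.266 to 5.54 in TSA(0-8h) embryos. The log2 differences were 3.66 (standard error 1.82) and 3.94 (standard error 1.76), with limma adjusted p-values of 0.721 and 0.697. Ppm1d, the phosphatase that reverses H2AX phosphorylation, was at 0.0294 to 0.133 RPKM in TSA(0-8h) embryos, 0.201 to 55.7 in control and 0.253 to 73.0 in TSA(0-8h)+VC(8-15h) embryos, with differences of -2.79 (standard error 1.94, limma adjusted p = 0.794) from control and 2.41 (standard error 1.65, limma adjusted p = 0.697) of TSA(0-8h)+VC(8-15h) over TSA(0-8h) embryos. The Ppm1d values that part these groups, 0.133, 0.201 and 0.253 RPKM, all lay under 1 RPKM. No gene of the H2A.Z exchange list met the rule.

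Of the other histone variants searched, 2 of 7 were tested, H2aj and the testis H2B gene H2bc1. H1f10, H1f6 and H1f7 were at 0 in all 14 embryos. H2bc1 reached 466.4 RPKM in the VC(0-8h) embryo, the embryo with the highest H2az2 value, and 34.3 in TSA(0-8h) replicate 2, and lay between 0 and 6.70 in the other 12.

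Two-cell markers did not overlap between the same groups in places, and none of the 7 tested passed. In TSA(0-8h)+VC(8-15h) against control, 5 of the 7 had a log2 fold change above 0 and 2 below. In TSA(0-8h) against control 4 were above and 3 below, and in TSA(0-8h)+VC(8-15h) against TSA(0-8h) 6 and 1. Of all genes tested, 8.39%, 2.91% and 9.55% were wholly higher in these comparisons, in that order. In TSA(0-8h)+VC(8-15h) against control embryos, Tcstv3 was at 2.36 to 52.3 against 0.168 to 0.332 RPKM and Eif1a at 5.46 to 74.0 against 0.128 to 0.202 (limma adjusted p = 0.721 for both). Zfp352 was at 135 to 225 RPKM in TSA(0-8h) and 0.326 to 125 in control embryos (limma adjusted p = 0.794), and Tcstv1 at 27.1 to 229 in TSA(0-8h)+VC(8-15h) and 0.403 to 19.1 in TSA(0-8h) embryos (limma adjusted p = 0.697). Zscan4c was at 0.0716 to 5.56 RPKM in TSA(0-8h)+VC(8-15h) and 0 to 0.0374 in TSA(0-8h) embryos, with the same adjusted p from limma. The values that part these groups, 0.0716 and 0.0374, lay far under 1 RPKM. The highest Zscan4c value, 26.2 RPKM, was in control replicate 3. The summed two-cell markers were at 346 to 396 RPKM in TSA(0-8h)+VC(8-15h), 148 to 368 in TSA(0-8h) and 6.06 to 282 in control embryos, and their part in the values of the histone variants was not tested. RPKM is a share of the reads of an embryo, so less of a transcript per cell and more of all others cannot be told apart.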

How the data were processed

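Total RNA of 14 single embryos was amplified and sequenced as single-end 50 bp reads. As the study's methods and submitters' processing notes give it, the authors removed bases under Q20, mapped with TopHat2 (version not given) to mm9, counted exonic reads and deposited RPKM values, 25650 RefSeq entries an embryo. Replicates were not pooled.

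Entries were summed by gene symbol (25246 with a symbol, 404 kept without one), giving 20636 features. Genes at 1 RPKM or more in at least 3 embryos were tested with limma 3.58.1 (R 4.3.3, trend) on log2(RPKM + 1), with Benjamini-Hochberg adjustment over 7600 genes and a threshold of 0.05. The study used a count test; as the deposited unit is RPKM, limma on the log scale was the main test here and limma-voom on the recovered reads an alternative. Single members were tested by 2-sided exact permutation (scipy 1.17.1). The scripts were tested on simulated data.

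Reads behind each value were recovered from the RPKM steps: of 14532 entries seen in 2 or more embryos, 14364 (98.8%) came out as whole numbers of reads with a whole length (tolerance 0.001). Intervals and limits of 3 reads cover counting error only. Members of the same lane had a mean rank correlation of 0.479 (28 pairs), against 0.385 between lanes (63 pairs). Lanes came from the library identifier, and groups and replicate numbers from the labels. Coordinates and transcripts are of GENCODE vM1 on NCBIM37, the assembly of mm9.

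The members, gene lists and tests were chosen with earlier results of these data known. Named in the text are all members and, of each list, up to 2 genes per comparison with the smallest p among those whose groups did not overlap. Genes of the lists that handle the variants are also named where their unadjusted limma p was under 0.05 in a pairwise comparison. Srcap and H1f9 were not matched. Alternatives covered the pseudocount, filter, scaling, trend, threshold, block, shared fit and each embryo left out; limma-voom was added after seeing the data. P-values measure the spread between single embryos.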

Additional observations from a re-analysis of the deposited data

Results flagged for a closer look

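Within sets of 6 or 8 embryos that share an agent or its absence, 5 of 30 held an embryo far from the others by Dixon's criterion (log2 scale). The criterion is set for about 1 in 20 independent sets of normally distributed values, whereas these sets share embryos. The share over all genes was not worked out, so the flagged embryos are descriptions only. H2ax in TSA(0-8h) replicate 2 was at 0.471 RPKM, far under the other 7 embryos given TSA and also far under the other 5 embryos given no VC. Cenpa in TSA(0-8h)+VC(0-8h) replicate 1 was at 3.67 RPKM, far under the other 7 embryos given TSA. H2az2 in VC(0-8h) replicate 1 was at 191 RPKM, far above the other 5 embryos given no TSA, and H2az2 in TSA(0-8h) replicate 3 was at 161 RPKM, far above the other 5 given no VC.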

How the results depend on the processing

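No member passed under any alternative: all 111 counts were 0, and the lowest adjusted p of a member was 0.147 (limma). Of 862 member values under alternatives, 60 changed sign, 44 of 450 with 1 embryo left out and 16 of 412 otherwise; the cause was not tested. Embryos that share a replicate number had weak but always positive correlations of their deviations (0.014 to 0.058). In the groups of the pairwise comparisons that number also stands for the lane, so the effects of number and lane cannot be told apart there. Embryos of the same lane were more alike, with a mean rank correlation of 0.479 against 0.385 between lanes. The replicate block changed no member's call and took the genes called from 1 to 0 for any TSA and from 2 to 0 for any VC.

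Median-ratio scaling moved the median fold change of all genes from 0.38 to -0.017 in TSA(0-8h)+VC(8-15h) against control, from -0.25 to -0.054 in TSA(0-8h) against control, from 0.71 to 0.038 in TSA(0-8h)+VC(8-15h) against TSA(0-8h), from 0.51 to 0.092 for any VC and from 0.75 to 0.0049 for the difference between TSA effects. Before adjustment, genes with a p under 0.05 were 268 higher and 69 lower, 90 and 107, and 259 and 46 in the 3 pairwise comparisons, and 144 and 135, 128 and 67, and 74 and 187 after that scaling. For any VC they went from 504 and 97 to 236 and 228. limma-voom called 27, 16 and 27 genes in the pairwise comparisons, 0 for any TSA and 1 for any VC.

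With median-ratio scaling, Cenpa became -0.48 in TSA(0-8h)+VC(8-15h) against control and -0.58 for any VC, H2az1 -0.096 for any TSA, and H3f3b -0.12 for any VC and -0.79 for the difference between TSA effects. In TSA(0-8h)+VC(8-15h) against TSA(0-8h), H1f0 and H3f3b became -1.22 and -0.83 with that scaling, -0.42 and -0.15 with quantile normalization and -0.87 and -0.52 with limma-voom. H2az1 for any TSA was -0.40 with quantile normalization and -0.62 with limma-voom, and H3f3b for any VC was -0.12 with limma-voom. With the replicate block, Cenpa for any VC was -0.26 and H3f3b for the difference between TSA effects -0.12.

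Leaving out 1 embryo, TSA(0-8h)+VC(8-15h) against control ranged from -0.18 (without its replicate 2) to 3.53 for H2az2, -0.87 to 0.43 (without its replicate 3) for H2ax, -1.61 to 1.46 (without its replicate 2) for H3f3b and -1.38 (without control replicate 3) to 1.46 for Cenpa. TSA(0-8h) against control ranged from -3.55 to 0.24 (without its replicate 2) for H2ax, -2.27 to 1.65 (without its replicate 1) for H3f3b and -1.15 (without control replicate 3) to 1.68 for Cenpa. TSA(0-8h)+VC(8-15h) against TSA(0-8h) ranged from -1.70 (without TSA replicate 1) to 0.90 for H1f0, -1.59 to 0.37 (without TSA replicate 2) for H2az1, -2.83 to 1.79 (without TSA replicate 3) for H2az2, -0.45 (without TSA replicate 2) to 3.34 for H2ax, -1.98 (without TSA replicate 1) to 2.16 for H3f3b and -1.0 to 0.40 (without TSA replicate 2) for Cenpa. Any TSA ranged from -0.66 (without TSA replicate 2) to 0.64 for H2az1 and -0.97 to 0.56 (without TSA replicate 1) for H3f3b. Any VC ranged from -0.60 (without TSA replicate 1) to 1.31 for H3f3b and -0.67 (without control replicate 3) to 0.73 for Cenpa. With their sign kept, H1f0 went to 1.66 and 1.64 against control without control replicate 1 and, in TSA(0-8h), to 4.31 without its replicate 1, and H2az1 went to 1.12 in TSA(0-8h)+VC(8-15h) without control replicate 2 and to 1.64 in TSA(0-8h) without its replicate 2. The difference between TSA effects ranged from -3.38 to 1.24 (without TSA replicate 3) for H2az2 and -1.60 (without TSA replicate 1) to 2.54 for H3f3b.

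H3f3a minus H3f3b was -1.94 without lane 1 and -1.24 without lane 3, and H2az1 minus H2az2 was 3.56 without lane 1 and 1.10 in the embryos with 1 RPKM of both, none past the threshold. H1f8 minus H1f0 was -4.52 in the 3 embryos with 1 RPKM of both, where the exact p cannot go below 0.25. At 0.198 to 0.891 RPKM for 3 reads, depth limits H1f8, Macroh2a1 and the low H2az2 and H2ax values.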
